A study of Mus musculus with 84 samples.

Results

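Calponin 1 (Cnn1), calponin 2 (Cnn2), myosin light chain kinase (Mylk) and the focal adhesion adaptor Tgfb1i1 (also called Hic-5) are followed here through normal glands, hyperplastic glands, tumors and lung metastases of MMTV-Wnt-1 and MMTV-Neu mice. Every spotted cDNA clone that carried 1 of these 4 symbols and no other was taken, which gave 7 of the 15360 clones on the 15k arrays and 5 of the 8832 clones on the 8.7k arrays. Cnn1 had clone 3b22, Cnn2 had clones 19a20 and 4j13, Tgfb1i1 had clones 5m18 and 6d19, and Mylk had clones 29c9 and 34a22 on the 15k arrays and none on the 8.7k arrays. Each array compared Cy5-labeled RNA of a sample with Cy3-labeled RNA pooled from several normal mouse organs, lactating mammary gland among them. All values are log2 ratios of sample to that reference, so 0 stands for the level of the reference and 1 unit for a doubling.

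Myoepithelial cells form the outer, contractile layer of mammary ducts and alveoli and squeeze milk from the gland when oxytocin reaches them. Their contraction uses the machinery of smooth muscle: calcium and calmodulin activate Mylk, which phosphorylates the regulatory light chain of myosin and so starts the movement of myosin along actin. Cnn1 binds actin and restrains the myosin ATPase, and it is made by smooth muscle and myoepithelial cells. Cnn2 is its close relative with a wider distribution, including fibroblasts and other cells without a smooth muscle program. Tgfb1i1 belongs to the paxillin family, sits where actin bundles meet the matrix, and is induced by TGF-beta. Serum response factor (SRF) drives many genes of smooth muscle through a DNA element called the CArG box, and TEAD factors act through the MCAT element.

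The 65 arrays of the 15k type held 5 virgin glands of nontransgenic FVB mice, aged 9 weeks, and 7 hyperplastic glands of MMTV-Wnt-1 mice of the same age. They also held 23 tumors of MMTV-Wnt-1 mice, 12 tumors of MMTV-Neu mice, aged 32 to 60 weeks, and 3 samples of intestinal fat from virgin FVB mice, aged 12 weeks. The remaining 15 arrays were lung metastases, 10 of Wnt-1 origin and 5 of Neu origin. Among the latter 3 had arisen in transgenic mice, and 2 had grown in nontransgenic mice after tail-vein injection of Neu tumor cells. The 8.7k arrays compared here held 10 tumors of MMTV-Wnt-1 mice and 6 tumors of MMTV-Wnt-1 mice in a P53 -/- background, the latter aged 9 to 14 weeks. The other Wnt-1 tumors, over both array types together, were aged 9 to 56 weeks, and no range is known here for either type alone. Both transgenes are driven by the long terminal repeat of mouse mammary tumor virus, which is active in mammary epithelium, and the Neu transgene is the unactivated rat gene. Neu mice were FVB and Wnt-1 mice were of a mixed, mostly FVB, background, so oncogene, background and age cannot be told apart in these groups. Age entered no fit, and its part in the comparison of p53 null with other Wnt-1 tumors was not tested. The samples were pieces of tissue, so fewer cells of a type and less RNA per cell cannot be told apart.

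Medians of the 15k arrays ranged from -0.14 to 0.04, and their SDs of log2 ratios from 0.67 to 2.59. An SD above 1.3 was found on 6 of the 15k arrays (Wnt-1 tumors 42 and 49, Wnt-1 metastases 19, 50 and 52, and fat sample 44), and leaving them out kept 23 of 26 calls in the comparisons they enter, the other 3 being given below with and without them. Of 9 markers of basal and myoepithelial cells, 4 had a clone of their own (Krt14, Cdh3, Itga6 and Oxtr), and their mean ran from 0.30 to 0.87 in Wnt-1 tumors, from -0.55 to 0.37 in Neu tumors and from 0.01 to 0.17 in virgin glands. The same mean ran from -0.20 to 0.58 in hyperplastic glands and from 0.16 to 0.27 in fat, so this list did not separate fat from the glands. No clone carried Acta2, Krt5 or Trp63 alone, so the myoepithelial layer could be checked only in part. The virgin and hyperplastic glands also gave high ratios for skeletal muscle markers, with a mean of 4 markers from 2.88 to 3.75 and from 2.47 to 3.47, against -1.64 to 0.80 in Wnt-1 tumors and -1.65 to 0.31 in Neu tumors.

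The sequences just upstream of the genes are shown because SRF and TEAD elements there are the textbook route to smooth muscle genes. They are the 250 bases before the annotated start in RefSeq (GRCm38.p6), all on the plus strand, at chr9:22099003-22099252 for Cnn1, chr10:79988350-79988599 for Cnn2 and chr16:34784700-34784949 for Mylk. Tgfb1i1 had no entry in the table. Capitals mark a CArG box or an MCAT element (CATTCC), searched on both strands.
Cnn1: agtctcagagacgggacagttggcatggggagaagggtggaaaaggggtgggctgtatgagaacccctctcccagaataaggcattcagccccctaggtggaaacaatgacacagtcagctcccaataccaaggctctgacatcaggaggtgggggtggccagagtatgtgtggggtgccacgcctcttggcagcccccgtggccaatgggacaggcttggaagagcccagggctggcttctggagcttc
Cnn2: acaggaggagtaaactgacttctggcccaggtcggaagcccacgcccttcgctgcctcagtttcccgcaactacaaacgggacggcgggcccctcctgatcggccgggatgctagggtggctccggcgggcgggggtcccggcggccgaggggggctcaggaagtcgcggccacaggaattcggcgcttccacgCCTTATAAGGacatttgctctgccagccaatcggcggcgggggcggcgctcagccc
Mylk: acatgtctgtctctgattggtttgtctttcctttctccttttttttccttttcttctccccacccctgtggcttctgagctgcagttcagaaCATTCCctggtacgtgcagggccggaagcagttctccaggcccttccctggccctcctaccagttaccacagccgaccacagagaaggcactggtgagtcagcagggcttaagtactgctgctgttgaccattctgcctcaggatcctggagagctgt
The Cnn2 window held 1 CArG box, 56 to 47 bases before the start, the Mylk window 1 MCAT element on the forward strand, 158 to 153 bases before it, and the Cnn1 window neither. Among all 27025 windows of this length, 1.40% held a CArG box and 12.6% an MCAT element. Of the genes listed for contractile filaments, 15 had a window and 2 of these (Myl9 and Vcl) held a CArG box, as did 1 of 11 regulators of contraction (Srf) and 0 of 9 focal adhesion and TGF-beta genes. The searched letters may lie outside these windows, and a match does not show that a factor was bound.

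Mylk, the switch of the contractile machinery, was measured by a pair of clones that gave different pictures. Clone 29c9 ran in Wnt-1 metastases from 0.20 through a median of 0.76 to 2.21, in hyperplastic glands from -0.10 through 0.57 to 1.11, and in Wnt-1 tumors from -1.05 through -0.15 to 0.99. The 3 fat samples stood at -0.13, -0.10 and 0.72, and the 5 virgin glands at -1.001, -0.66, -0.34, -0.27 and -0.05. All these groups overlapped their neighbours in the order. Neu metastases followed at -1.89, -1.61 and -1.33, the tail-vein metastases at -2.30 and -1.40, and Neu tumors ran from -3.11 through -2.41 to -2.16. Every Neu sample lay below every virgin gland, and the mean fell from 0.84 ± 0.62 (SD, n = 10) in Wnt-1 metastases to -2.48 ± 0.25 (SD, n = 12) in Neu tumors, a span of 3.33.

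Clone 34a22 of Mylk hardly varied. Its group means stayed between 0.17 ± 0.08 (SD, n = 10) in Wnt-1 metastases and 0.50 ± 0.26 (SD, n = 3) in Neu metastases, a span of 0.33, and every group overlapped the next in the order. Single samples ran from -0.15 to 0.64 in Wnt-1 tumors and from -0.01 to 0.70 in Neu tumors. Over the 65 arrays its SD was 0.19 against 1.25 for clone 29c9, and the clones were correlated at r = -0.23. Where the text speaks of Mylk by 1 clone, it is therefore named, and the cause of the disagreement was not tested.

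Cnn1, the actin-binding restraint on myosin, had the widest span of group means among the 7 clones, 4.60. It ran in Wnt-1 metastases from 1.09 through a median of 1.83 to 2.68 and in Wnt-1 tumors from -0.60 (tumor 79) through 1.00 to 1.90 (tumor 47). Hyperplastic glands ran from -1.25 through -0.34 to 0.48, fat samples stood at -1.02, -0.49 and 0.33, and virgin glands at -1.09, -0.53, -0.52, -0.25 and -0.10. The last 3 groups were intermingled, with means of -0.38 ± 0.52 (SD, n = 7), -0.39 ± 0.68 (SD, n = 3) and -0.50 ± 0.38 (SD, n = 5). Neu metastases stood at -2.84, -2.16 and -1.84, the tail-vein metastases at -2.82 and -2.76, and Neu tumors ran from -6.37 through -2.55 to -1.89. All Neu samples lay below all other samples. The value of -6.37 belonged to Neu tumor 67, and the other 11 Neu tumors lay between -3.12 and -1.89.

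Cnn2, the more widely made calponin, kept another order. Clone 19a20 ran from 0.96 through 1.23 to 1.67 in Wnt-1 metastases and from 0.64 through 0.99 to 1.43 in Wnt-1 tumors. Its Neu samples stood in the middle, with metastases at -0.44, -0.36 and 0.46, tail-vein metastases at -0.46 and 0.91, and tumors from -1.17 through -0.39 to 0.46. Hyperplastic glands (-1.06 through -0.85 to -0.59), virgin glands (-1.17 to -0.83) and fat (-1.24, -1.08 and -1.07) were lowest. Virgin glands overlapped both of the other groups, while hyperplastic glands lay just above fat. Clone 4j13 also placed Wnt-1 metastases (0.60 through 1.04 to 1.62) and Wnt-1 tumors (-0.06 through 0.76 to 1.26) at the top. It set Neu tumors last, from -1.93 through -1.22 to -0.70, overlapping virgin glands, which ran from -1.12 to -0.70. The clones were correlated at r = 0.88 over the 65 arrays, but clone 19a20 lay above clone 4j13 by 0.85 on average in Neu tumors and below it by a mean difference of -0.04 in virgin glands, so their order between those groups differs.

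Tgfb1i1, the adhesion adaptor, gave nearly the same order of groups on both clones (r = 0.96 over the 65 arrays). Clone 5m18 ran from 1.02 through 1.17 to 1.51 in Wnt-1 metastases, from 0.45 through 1.04 to 1.65 in Wnt-1 tumors and from -0.11 through 0.36 to 0.67 in hyperplastic glands. Fat stood at 0.39, 0.47 and 0.57, and virgin glands at -0.41, -0.11, -0.07, 0.01 and 0.08. Neighbouring groups overlapped down to the virgin glands, and a gap followed. Below it lay Neu metastases at -1.91, -1.55 and -1.14, tail-vein metastases at -1.95 and -1.43, and Neu tumors from -2.52 through -1.90 to -0.89. Clone 6d19 repeated this order except that hyperplastic glands (0.32 through 0.66 to 1.04) stood above fat (-0.04, 0.33 and 0.52), and its Neu tumors ran from -2.92 through -2.04 to -1.51.

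**Figure D1:**
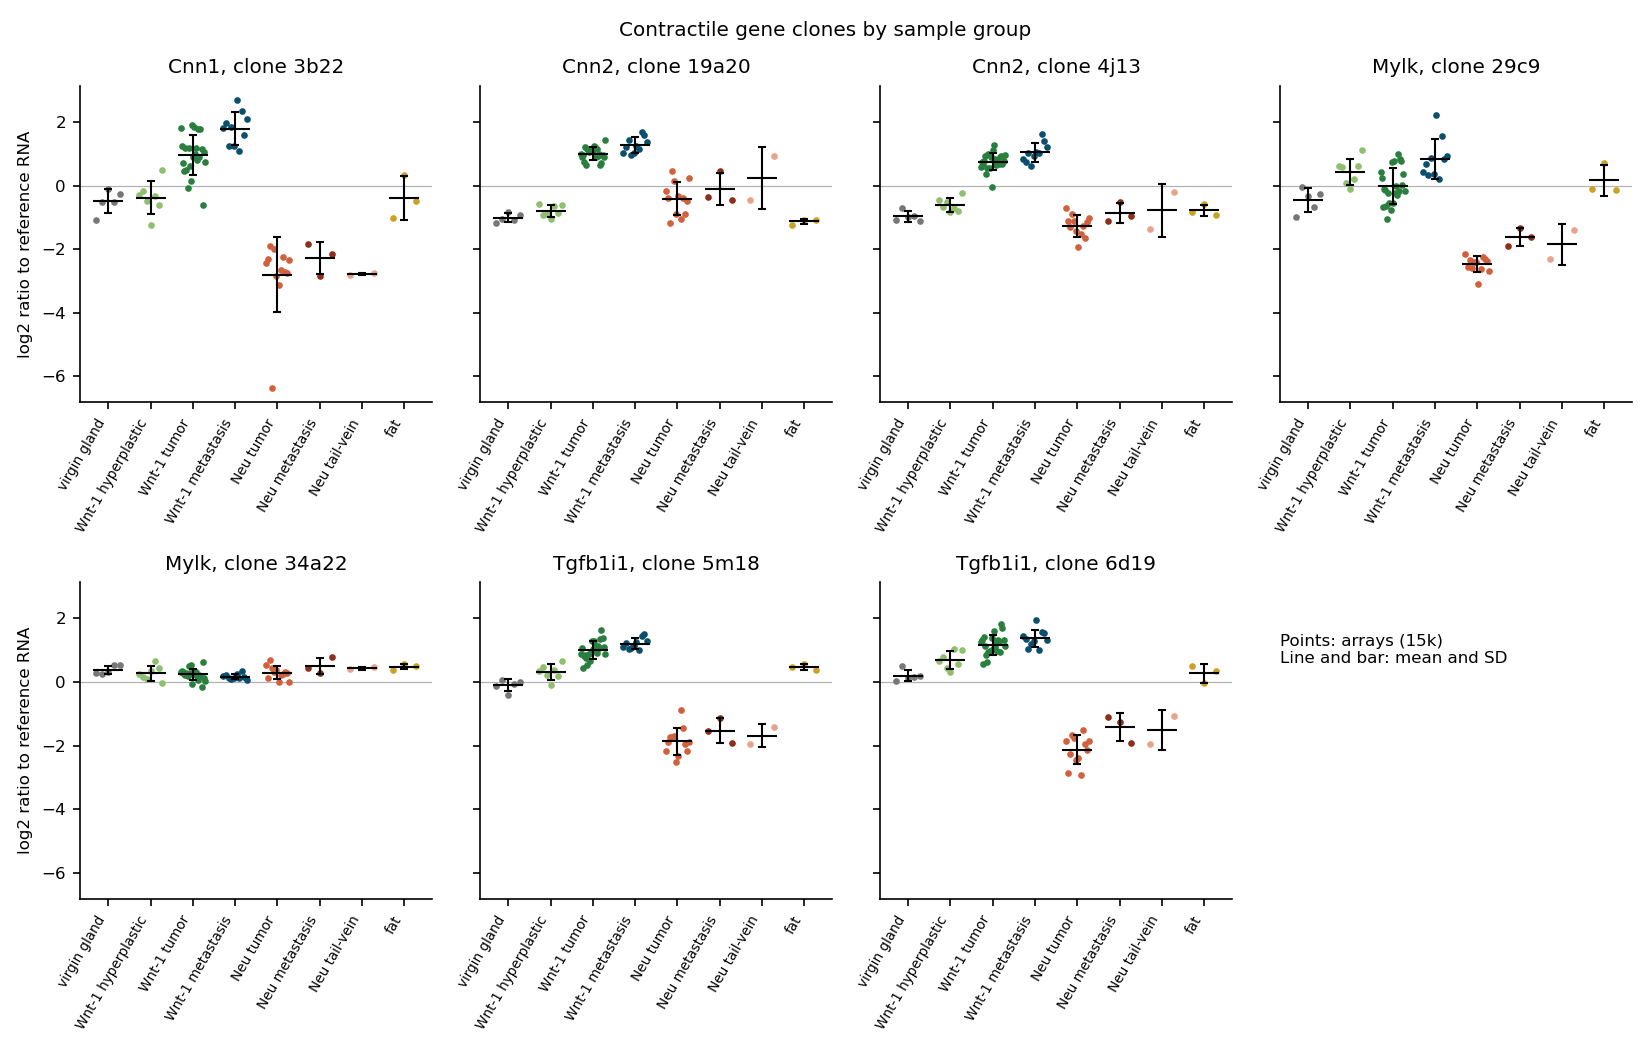
Log2 ratio of sample to reference RNA (vertical axis) for the 7 clones of Cnn1, Cnn2, Mylk and Tgfb1i1 on the 15k arrays, by sample group (horizontal axis), with 1 point per array and lines and bars for the mean and SD. Cnn1, Mylk clone 29c9 and both Tgfb1i1 clones drop below virgin glands in every Neu group, both Cnn2 clones overlap virgin glands in Neu tumors, and Mylk clone 34a22 stays between -0.15 and 0.78 throughout.

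The first comparison sets hyperplastic glands of MMTV-Wnt-1 mice against virgin glands of nontransgenic FVB mice. Transgene and strain background cannot be told apart in it. Mylk clone 29c9 was 1.87-fold higher in hyperplastic than in virgin glands (log2 difference 0.90, SE 0.21, adjusted p = 0.00711), and 6 of 7 hyperplastic glands lay above all 5 virgin glands. Tgfb1i1 was 1.33-fold higher on clone 5m18 (SE 0.13 on the log2 scale, adjusted p = 0.0404) and 1.41-fold on clone 6d19 (SE 0.14, adjusted p = 0.0225). Cnn2 was 1.29-fold higher on clone 4j13 (SE 0.12, adjusted p = 0.0453) and differed by 0.21 (SE 0.11, adjusted p = 0.186) on clone 19a20. Thus 4 of the 7 clones were called higher, against 8.93% of all clones, and none lower. Cnn1 differed by 0.11 (95% interval -0.41 to 0.64, adjusted p = 0.783), and its glands overlapped fully. Except for Mylk clone 29c9 these calls were lost, at adjusted p of 0.084 to 0.156, when all groups entered 1 fit, and the number of clones called fell to 1 without virgin gland 27 or 28 and to 2 without virgin gland 13 or 29. Of 5 markers of vascular smooth muscle and pericytes 4 were lower in hyperplastic glands, with a range of the mean from -0.003 to 0.38 against 0.48 to 1.07. Of 8 adipocyte markers 7 were lower (1.07 to 1.60 against 2.33 to 2.58), as were 4 of 6 endothelial markers (-0.40 to -0.21 against 0.07 to 0.37), and the part of these tissues in the result was not tested.

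Among the members, the calponins rose most in fold from hyperplastic glands to tumors. The paper used the average rise of Krt19 and both calponins here to estimate the ductal and alveolar share of RNA in hyperplastic tissue. It filtered its genes of this step by fold for that reason. Both Cnn2 clones rose, 3.49-fold for 19a20 (log2 difference 1.80, SE 0.09, adjusted p = 1.97e-16) and 2.55-fold for 4j13 (1.35, SE 0.11, adjusted p = 2.94e-11), and all 23 Wnt-1 tumors lay above all 7 hyperplastic glands on both, a separation found for 2.79% of all clones. Cnn1 rose 2.55-fold (1.35, SE 0.26, adjusted p = 6.8e-05), with 19 of 23 tumors above every hyperplastic gland. Tgfb1i1 rose 1.62-fold on clone 5m18 (SE 0.12, adjusted p = 1.61e-05) and 1.40-fold on clone 6d19 (SE 0.13, adjusted p = 0.00287). The latter clone missed the threshold of 0.001 in the permutation t test (p = 0.0011). In all, 5 of 7 clones were called higher, against 20.1% of all clones. Mylk clone 29c9 did not follow: it differed by -0.46 (95% interval -0.92 to 0.01, adjusted p = 0.111), and every hyperplastic gland exceeded 13 of 23 tumors. Over the same step all 4 skeletal muscle markers (median difference -3.57), 7 of 8 adipocyte markers (-2.67) and 5 of 6 fibroblast markers (-1.49) were lower. So were 4 of 6 endothelial markers (-0.42). Of 3 luminal markers 2 were higher and 1 lower (median difference 0.72), and of 4 basal and myoepithelial markers 2 were higher (0.48). The part of these cells in the result was not tested.

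Set against virgin glands, which also served as the controls above, Wnt-1 tumors had 5 of 7 clones higher, against 24.3% of all clones. Cnn1 was 2.76-fold higher (log2 difference 1.47, SE 0.29, adjusted p = 9.5e-05), and every virgin gland was exceeded by 22 of 23 tumors. Cnn2 was 4.04-fold higher on clone 19a20 (SE 0.10, adjusted p = 2.52e-16) and 3.30-fold on clone 4j13 (SE 0.13, adjusted p = 2.08e-12). Tgfb1i1 was 2.15-fold higher on clone 5m18 (SE 0.13, adjusted p = 4.99e-08) and 1.97-fold on clone 6d19 (SE 0.14, adjusted p = 1.53e-06). On these 4 clones every tumor exceeded every virgin gland, as on 7.09% of all clones. Mylk clone 29c9 differed by 0.45 (SE 0.26, adjusted p = 0.166). All 8 adipocyte markers (median difference -4.03), all 4 skeletal muscle markers (-3.93) and 5 of 6 fibroblast markers (-1.78) were lower in the tumors. So were all 6 endothelial markers (-1.003) and 4 of 5 markers of vascular smooth muscle and pericytes (-0.74). Of 3 luminal markers 2 were higher and 1 lower (median difference 1.165), and of 4 basal and myoepithelial markers 2 were higher (0.40). The part of these cells in the result was not tested.

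Neu tumors, set against the same 5 virgin glands, had 4 of 7 clones lower, against 27.3% of all clones, and 1 higher, against 24.9%. Cnn1 was 4.97-fold lower (log2 difference -2.31, SE 0.50, adjusted p = 0.000821), and Mylk clone 29c9 was 4.06-fold lower (-2.02, SE 0.15, adjusted p = 2.74e-09). Tgfb1i1 was 3.41-fold lower on clone 5m18 (-1.77, SE 0.19, adjusted p = 4.14e-07) and 5.04-fold lower on clone 6d19 (-2.33, SE 0.20, adjusted p = 2.21e-08). On these 4 clones all 12 tumors lay below all virgin glands, as on 15.4% of all clones. Without Neu tumor 67 the Cnn1 difference was -1.99 (adjusted p = 1.25e-07). Cnn2 clone 19a20 was 1.51-fold higher (0.60, SE 0.23, adjusted p = 0.0369), a call lost without virgin gland 13, 17, 28 or 29 and in the permutation t test at 0.001 (p = 0.0267), while clone 4j13 differed by -0.29 (SE 0.16, adjusted p = 0.131), so no direction is given for Cnn2. All 5 vascular smooth muscle and pericyte markers were lower as well, with means from -0.25 to 0.13 in Neu tumors, and all 6 endothelial markers were lower, from -1.26 to -0.92 against 0.07 to 0.37. So were all 8 adipocyte markers (median difference -4.20), all 4 skeletal muscle markers (-4.20) and 5 of 6 fibroblast markers (-2.03). Of 4 basal and myoepithelial markers 1 was higher and 1 lower (median difference -0.14), and of 3 luminal markers 1 was higher and 2 lower (-1.41). The part of all these cells in the result was not tested.

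Directly compared, the tumors of the 2 oncogenes were separated by 6 of the 7 clones, against 21.7% of all clones that were higher in Wnt-1 tumors. Cnn1 differed most, at 13.7-fold (log2 difference 3.78, SE 0.30, adjusted p = 4.5e-13), or by 3.45 (adjusted p = 4.17e-16) without Neu tumor 67. Tgfb1i1 was 7.33-fold higher on clone 5m18 (SE 0.12, adjusted p = 1.32e-20) and 9.92-fold on clone 6d19 (SE 0.13, adjusted p = 2.08e-21), and Mylk clone 29c9 was 5.53-fold higher (SE 0.17, adjusted p = 2.02e-14). Cnn2 was 2.67-fold higher on clone 19a20 (SE 0.12, adjusted p = 4.37e-12) and 4.04-fold on clone 4j13 (SE 0.10, adjusted p = 7.21e-18). On each of these 6 clones every one of the 23 Wnt-1 tumors lay above all 12 Neu tumors, a separation found for 2.17% of all clones. Mylk clone 34a22 differed by -0.05 (95% interval -0.19 to 0.09, adjusted p = 0.589), and the mean of both Mylk clones differed by 1.21. Vascular smooth muscle and pericyte markers split, 2 of 5 higher (Myh11 and Mcam) and 1 lower (Cspg4), with means from -0.04 to 0.53 in Wnt-1 and from -0.25 to 0.13 in Neu tumors. Fibroblast markers were higher in 3 of 6 and endothelial markers in 4 of 6, and the part of these cells was not tested.

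**Figure D2:**
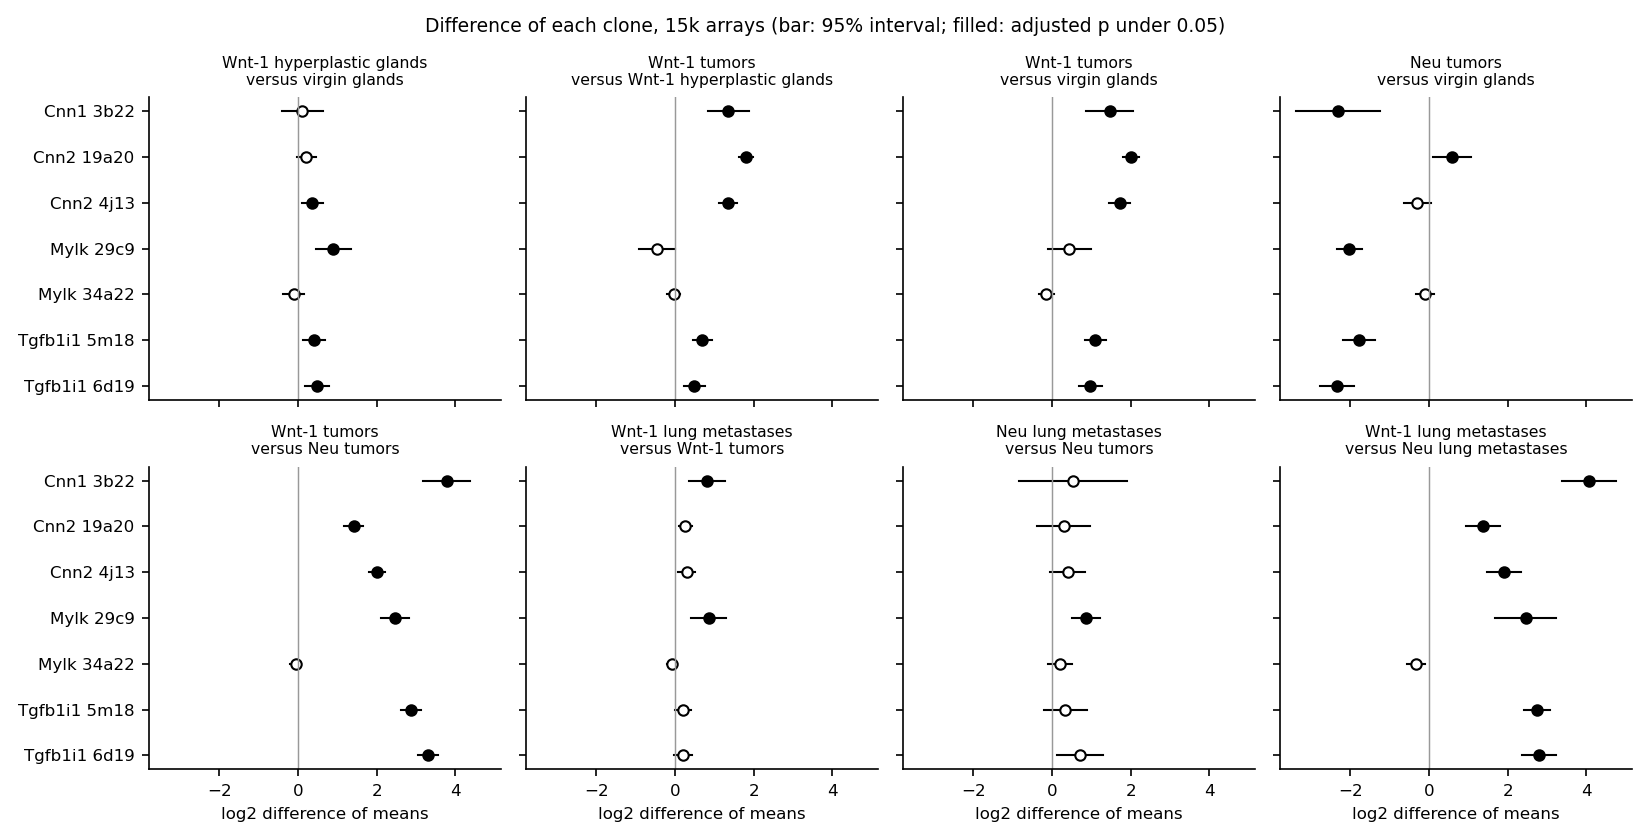
Log2 difference of group means (horizontal axis) for each of the 7 clones (vertical axis) in 8 comparisons on the 15k arrays, with 95% intervals and filled points where the adjusted p was under 0.05. Hyperplastic glands differ from virgin glands mainly in Mylk clone 29c9 (0.90), tumors from hyperplastic glands mainly in Cnn2 (1.80 and 1.35) and Cnn1 (1.35), and Wnt-1 from Neu tumors in all but Mylk clone 34a22.

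Mylk clone 29c9 and Cnn1 were called higher in lung metastases of MMTV-Wnt-1 mice than in the tumors, but not without the wide arrays. Mylk clone 29c9 was 1.81-fold higher (log2 difference 0.86, SE 0.22, adjusted p = 0.0147), with 2 of 10 metastases above all 23 tumors, and Cnn1 was 1.77-fold higher (0.82, SE 0.22, adjusted p = 0.0242), with 4 of 10 above. The groups thus overlapped for both. These 2 of 7 clones stand against 2.47% of all clones called higher. Mylk clone 34a22 differed by -0.07 (adjusted p = 0.59). Cnn2 differed by 0.26 (adjusted p = 0.0646) and 0.30 (adjusted p = 0.108), and Tgfb1i1 by 0.20 on both clones (adjusted p = 0.242 and 0.347). Without the 5 wide arrays of these groups the difference was 0.72 for Mylk clone 29c9 (adjusted p = 0.163) and 0.71 for Cnn1 (adjusted p = 0.199), so neither was called. The Cnn1 call was also lost when all groups entered 1 fit (0.82, adjusted p = 0.0576).

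Some metastases share a number with a tumor, and the labels do not say what a shared number means. Over the 7 numbers that Wnt-1 tumors and metastases share, the metastasis was higher in 7 of 7 for Mylk clone 29c9, by 0.57 through a median of 1.15 to 1.46, and in 7 of 7 for Cnn1, by 0.06 through 0.78 to 1.22. These arrays also entered the comparison above, and numbers 42, 49 and 50 each include a wide array. Metastasis 47 had the highest values of both Mylk clone 29c9 and Cnn1, and its number's tumor the highest Cnn1 of the tumors. For Cnn2 the metastasis was higher in 5 and 6 of 7 and for Tgfb1i1 in 5 of 7 on both clones.

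**Figure D3:**
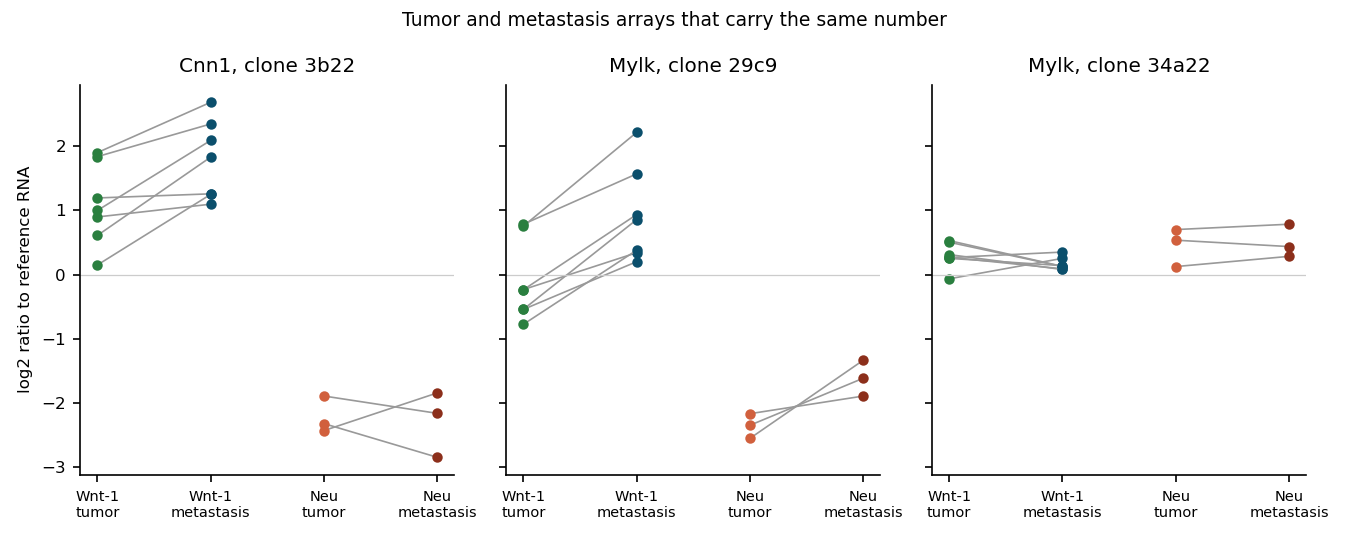
Log2 ratio to reference (vertical axis) of Cnn1 and of both Mylk clones in tumors and lung metastases that carry the same number (points joined by lines; 7 numbers for Wnt-1 and 3 for Neu). Lines for Mylk clone 29c9 rise in 7 of 7 Wnt-1 and 3 of 3 Neu numbers, those for Cnn1 in 7 of 7 and 1 of 3, and those for Mylk clone 34a22 in 2 of 7 and 2 of 3.

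Lung markers were high in these samples. Of 5 lung epithelium markers, 3 were higher in Wnt-1 metastases than in tumors (Sftpb, Sftpc and Scgb1a1; list median 3.74), with means per array from -0.47 to 1.13 against -4.66 to -2.37. Of 5 vascular smooth muscle and pericyte markers 1 was higher, Mcam, and their mean ran from 0.17 to 1.02 against -0.04 to 0.53. Endothelial markers were higher in 4 of 6 (median 0.50), with means from -0.66 to -0.15 against -1.02 to -0.54. Metastasis 47, highest in Cnn1 (2.68) and Mylk clone 29c9 (2.21), was also highest in the lung list (1.13). Metastasis 50, next highest in both clones (2.34 and 1.57), stood at 0.72 in the lung list. Metastasis 62, at 2.09 and 0.93, was next to lowest in it (-0.47). Metastasis 49, lowest in Cnn1 (1.09) and in Mylk clone 29c9 (0.20), stood at 0.21 in the lung list. In the list of vascular smooth muscle and pericytes metastasis 47 stood at 0.99, metastasis 50 at 0.87, metastasis 62 at 0.60 and metastasis 49 at 0.25. Metastasis 38 was highest in that list (1.02), with 1.83 for Cnn1 and 0.85 for Mylk clone 29c9. The part of lung and vessel RNA in the values of Mylk clone 29c9 and Cnn1 was not tested.

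In Neu mice Mylk clone 29c9 was 1.83-fold higher in the 3 lung metastases than in the 12 tumors (log2 difference 0.87, SE 0.17, adjusted p = 0.0465), and all 3 lay above all tumors, as on 0.612% of all clones. It was 1 of 7 clones called, against 0.195% of all clones called higher. Cnn1 differed by 0.53 (95% interval -0.85 to 1.91, adjusted p = 0.929) and Tgfb1i1 clone 6d19 by 0.71 (SE 0.28, adjusted p = 0.652). The Mylk call did not survive leaving out metastasis 56 (0.73, adjusted p = 0.286), metastasis 61 (0.87, adjusted p = 0.324) or tumor 67 (0.86, adjusted p = 0.0576), nor adding the tail-vein metastases (0.78, adjusted p = 0.0508). Lung epithelium markers were higher in 3 of 5, with means of -0.99, -0.66 and 1.02 in the metastases against -3.20 to -2.06 in the tumors. Endothelial markers were higher in 1 of 6 and vascular smooth muscle and pericyte markers in 0 of 5, and the part of these cells in the result was not tested.

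Whether the metastases differ from the tumors to another extent under the 2 oncogenes was tested as an interaction. No clone of the 7 passed, against 0.0651% of all clones, and 1 of 7 had an unadjusted p under 0.05, namely Mylk clone 34a22 (difference of the steps, Wnt-1 minus Neu, -0.28, SE 0.14, adjusted p = 0.687). For Mylk clone 29c9 the difference of the steps was -0.01 (SE 0.38, adjusted p = 0.997), for Cnn1 0.29 (SE 0.57, adjusted p = 0.94) and for Tgfb1i1 clone 6d19 -0.51 (SE 0.26, adjusted p = 0.704).

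The metastases themselves were also separated by oncogene. In Wnt-1 metastases 6 of 7 clones were higher, against 7.13% of all clones, and for those 6 all 10 Wnt-1 metastases lay above all 3 Neu metastases, a separation found for 6.06% of all clones. Cnn1 was 16.8-fold higher (log2 difference 4.07, SE 0.32, adjusted p = 3.59e-06), Tgfb1i1 6.68-fold and 6.95-fold (adjusted p = 2.34e-07 and 1.83e-06), and Mylk clone 29c9 5.48-fold (SE 0.36, adjusted p = 0.000479). Cnn2 was 2.60-fold higher on clone 19a20 and 3.77-fold on clone 4j13 (adjusted p = 0.000453 and 3.97e-05). Mylk clone 34a22 leaned the other way, at -0.33 (SE 0.10, adjusted p = 0.053), with 9 of 10 Wnt-1 metastases below every Neu metastasis. Endothelial markers were higher in 3 of 6. Vascular smooth muscle and pericyte markers were higher in 2 of 5 and lower in 1, with a mean of 0.58 ± 0.30 (SD, n = 10) in Wnt-1 against 0.001 ± 0.04 (SD, n = 3) in Neu metastases, and the part of these cells was not tested.

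Fat was included in the study to gauge the adipose tissue around the glands. Compared with the 5 virgin glands, Tgfb1i1 clone 5m18 was 1.49-fold higher (log2 difference 0.58, SE 0.14, adjusted p = 0.0427), which made 1 of 7 clones, against 5.31% of all clones called higher. The other Tgfb1i1 clone differed by 0.07 (SE 0.17, adjusted p = 0.782), and the call on clone 5m18 was lost on leaving out any 1 of the 8 arrays, the wide array of fat sample 44 among them (0.58, adjusted p = 0.0515). Mylk clone 29c9 differed by 0.63 (SE 0.28, adjusted p = 0.185). Adipocyte markers were higher in 7 of 8 and skeletal muscle markers lower in 3 of 4, and their part was not tested. Compared with all 35 primary tumors, Cnn2 clone 19a20 was 3.14-fold lower in fat (-1.65, SE 0.44, adjusted p = 0.00163), 1 of 7 clones, against 31.6% of all clones called lower. The tumors of the 2 oncogenes lie far apart on these clones, and Cnn1 in fat differed from their joint mean by -0.07 (95% interval -2.38 to 2.25, adjusted p = 0.967).

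On the 8.7k arrays the loss of p53 in Wnt-1 tumors was examined. Cnn1 stood at -1.65, -1.58, -1.29, -0.66, -0.04 and 0.80 in the 6 p53 null tumors and ran from -1.70 through a median of 0.67 to 1.98 in the 10 other Wnt-1 tumors, so the groups overlapped fully. Its difference was -1.38 (SE 0.51, 95% interval -2.46 to -0.30, adjusted p = 0.203). Tgfb1i1 ran from -0.86 through -0.09 to 0.50 in p53 null tumors and from -0.63 through 0.62 to 1.56 in the others on clone 5m18, a difference of -0.78 (SE 0.30, adjusted p = 0.224), and clone 6d19 also differed by -0.78 (SE 0.29, adjusted p = 0.214). Cnn2 differed by 0.26 on clone 19a20 (adjusted p = 0.541) and by -0.26 on clone 4j13 (adjusted p = 0.633). By limma 0 of 5 clones were called, against 0.442% of all clones, and a permutation test at 0.001 also called 0. Unadjusted limma p was under 0.05 for 3 of 5 clones (Cnn1 and both Tgfb1i1 clones). By p these ranked 645 (Cnn1), 692 (Tgfb1i1 clone 6d19) and 752 (clone 5m18) among 8832 clones, so many other clones had a p as small or smaller. Of the 2 measured luminal markers neither was called, and their mean ran from 0.30 to 1.61 in p53 null tumors and from 1.27 to 2.15 in the others. Their part was not tested.

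**Figure D4:**
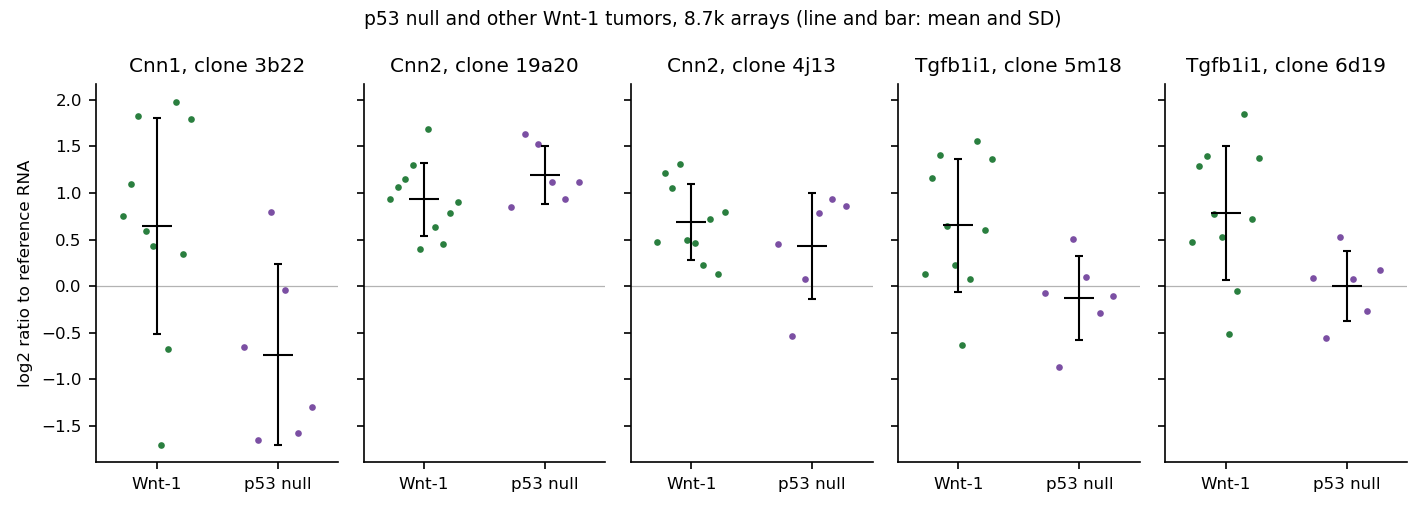
Log2 ratio to reference (vertical axis) of the 5 clones on the 8.7k arrays in 10 Wnt-1 tumors and 6 p53 null Wnt-1 tumors (horizontal axis), with 1 point per array and lines and bars for the mean and SD. The groups overlap on every clone, and Cnn1 spreads from -1.70 to 1.98 among the Wnt-1 tumors.

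Tumors of 1 group differed among themselves, and some members moved together. The paper reports Ha-Ras mutations in some of the Wnt-1 tumors, which the labels do not give. Their part in these correlations was not tested. Over the 23 Wnt-1 tumors, with the clones of a gene averaged, Mylk and Tgfb1i1 were correlated at r = 0.76 (rho = 0.81, permutation p = 3e-05, adjusted p = 0.00054), and at r = 0.76 without the 2 tumors farthest from the Mylk median. Cnn1 and Mylk were correlated at r = 0.66 (rho = 0.73, permutation p = 0.00062, adjusted p = 0.00372), and at r = 0.88 without the 2 tumors farthest from the Cnn1 median. The r of Cnn2 with Cnn1 was 0.02 (rho = 0.01, permutation p = 0.941, adjusted p = 0.997). Within these tumors the averaged clones were correlated with each other at r = 0.81 for Tgfb1i1 but at 0.23 for Cnn2 and -0.44 for Mylk, so the mean of the Cnn2 clones could hardly show how Cnn2 varied in this group. Over the 10 Wnt-1 metastases Cnn1 and Mylk were correlated at r = 0.90 (rho = 0.85, permutation p = 9e-05, adjusted p = 0.00081) and Mylk and Tgfb1i1 at r = 0.84 (rho = 0.92, permutation p = 0.00106, adjusted p = 0.00477). Without the 2 farthest metastases these were 0.81 and 0.72. Without the wide arrays the r of Mylk and Tgfb1i1 there was 0.91, with an adjusted p of 0.0592 by the permutation test. The r of Cnn1 and Tgfb1i1 there, 0.77 (rho = 0.75, permutation p = 0.0105, adjusted p = 0.0379), fell to 0.52 without the 2 farthest and rests on them, and its adjusted p was 0.0629 by rho. Without the wide arrays it was 0.90, with an adjusted p of 0.0357 by the permutation test.

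In the 12 Neu tumors none of the 6 gene pairs passed by the permutation test, the lowest adjusted p being 0.428. The averaged clones were correlated there at r = -0.08 for Tgfb1i1, 0.57 for Cnn2 and 0.68 for Mylk, so pairs with Tgfb1i1 could hardly pass. The r of Cnn1 and Cnn2 there was -0.38 (rho = -0.03, permutation p = 0.238) and became 0.72 without the 2 tumors farthest from the Cnn1 median, 1 of which was tumor 67. In all, 5 of the 18 pairs in 3 groups passed after adjustment over the 18. With Mylk clone 29c9 in place of the mean of both clones, the r of Cnn1 and Mylk was 0.74 in Wnt-1 tumors and 0.90 in Wnt-1 metastases, and 5 of 18 passed again.

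**Figure D5:**
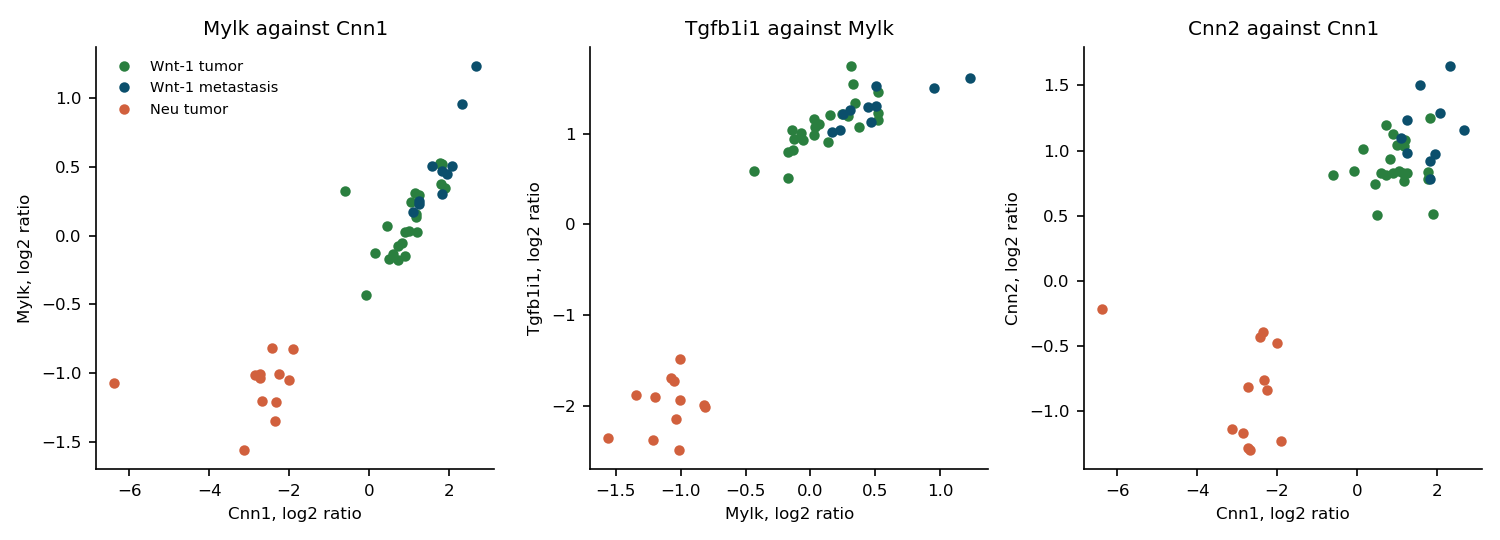
Log2 ratios of pairs of genes (clones of a gene averaged, both axes in log2 ratio to reference) in Wnt-1 tumors, Wnt-1 metastases and Neu tumors, with 1 point per array. Within Wnt-1 tumors Mylk follows Cnn1 (r = 0.66) and Tgfb1i1 follows Mylk (r = 0.76), while Cnn2 and Cnn1 show no such trend (r = 0.02), with the averaged Cnn2 clones themselves correlated at only 0.23.

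The genes whose pattern over all 65 arrays was most like each member are given as a description, since the arrays share groups and a reference. For Cnn1 they were Fads1 (r = 0.91), Tgfb1i1 (0.90), Pdgfa (0.90), Id4 (0.89) and Plxna1 (0.87), and for Cnn2 they were Flna (0.91), Sfn (0.90), Nop58 (0.89), Synpo (0.88) and Pdgfa (0.88). For Mylk they were the smooth muscle myosin heavy chain Myh11 (0.91), vinculin (Vcl, 0.90), Tgfb1i1 (0.89), Maob (0.86) and Fam107b (0.85). For Tgfb1i1 they were 5033421C21Rik (0.96), Id4 (0.95), 8430436O14Rik (0.94), Vcl (0.94) and Plxna1 (0.93). Cnn2 and Tgfb1i1 thus had none of the other members among their 5 nearest genes. Of 7762 genes, Tgfb1i1 came 121st for Cnn2 (r = 0.74), Cnn1 123rd (0.73) and Mylk 623rd (0.53). For Tgfb1i1, Cnn1 came 12th (0.90), Mylk 17th (0.89) and Cnn2 136th (0.74). Within the 23 Wnt-1 tumors alone, the genes nearest to Cnn1 were Nfic (0.81), Bscl2 (0.77), Mpc1-ps (0.70), Tff1 (0.70) and Rbpms (0.69), with Mylk in place 14 (0.66) of 7765 genes.

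Other genes of the contractile machinery were read at the level of genes, with clones averaged. Of 18 genes of contractile filaments 8 were measured, and 4 were higher and 1 lower in Wnt-1 than in Neu tumors, with a median difference of 0.15 against -0.03 over all 7766 genes, of which 22.8% were higher and 23% lower. The leading genes were Vcl, which anchors actin to adhesions (1.26, adjusted p = 2.56e-16), the actin crosslinker Flna (1.15, adjusted p = 5.04e-13) and Myh11 (1.42, adjusted p = 2.66e-09). Caldesmon (Cald1), another actin-binding restraint on myosin, was lower (-0.42, adjusted p = 2.28e-05). The list thus held changes in both directions.

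Of 18 regulators of contraction 7 were measured, and 4 were higher and 3 lower in Wnt-1 than in Neu tumors, with a median of 0.17. Srf was higher (0.75, adjusted p = 3.53e-08), as was Ppp1r12a, the targeting subunit of myosin phosphatase (0.47, adjusted p = 3.45e-07), whereas the catalytic subunit Ppp1cb was lower (-0.62, adjusted p = 5.27e-05). Of 14 focal adhesion and TGF-beta genes 9 were measured, and 3 were higher and 3 lower, with a median of -0.10. The TGF-beta receptor Tgfbr2 (-0.54, adjusted p = 1.77e-05) and its signal carrier Smad3 (-0.46, adjusted p = 6.28e-05) were lower, and paxillin (Pxn), the relative of Tgfb1i1, was higher (0.36, adjusted p = 6.57e-05). Of the 4 measured basal markers 3 were higher, with Cdh3 at 0.98, Oxtr, the oxytocin receptor, at 1.09 and Itga6 at 0.38, while Krt14 differed by 0.10 (adjusted p = 0.303).

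From hyperplastic glands to Wnt-1 tumors, 3 of 8 contractile filament genes were higher and none lower, with a median of 0.20 against -0.03 over all genes, of which 21.9% were higher and 22.2% lower. They were the actin crosslinkers Actn1 (0.82, adjusted p = 3.47e-10) and Flna (0.83, adjusted p = 4.02e-10) and Cald1 (0.47, adjusted p = 0.000182). Among 7 regulators 3 were higher and 1 lower, led by Srf (0.88, adjusted p = 3.29e-07), the myosin-activating kinase Rock1 (0.23, adjusted p = 0.00128) and, lower, the endothelin receptor Ednrb (-0.23, adjusted p = 0.0188). Among 9 focal adhesion and TGF-beta genes 4 were higher and 2 lower, led by Pxn (0.88, adjusted p = 1.92e-09), Parva (0.81, adjusted p = 1.04e-08) and talin 1 (Tln1, 0.69, adjusted p = 2.6e-06), all of which act where actin meets integrins. From virgin to hyperplastic glands, 1 of 8 contractile filament genes (Flna, 0.35, adjusted p = 0.0416) and 0 of 7 regulators were higher, against 9.58% of all genes.

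In Neu tumors against virgin glands, contractile filament genes went both ways, 4 of 8 higher and 2 lower, against 26.8% and 28.8% of all genes. Myh11 (-1.26, adjusted p = 1.59e-06) and Vcl (-1.02, adjusted p = 8.44e-07) were lower, as were Cnn1, Tgfb1i1 and Mylk clone 29c9, whereas Cald1 (0.97, adjusted p = 1.23e-07), Actn1 (0.84, adjusted p = 1.81e-06), Lmod1 (0.74, adjusted p = 0.000105) and Smtn (0.51, adjusted p = 0.00106) were higher. In Wnt-1 metastases against tumors 0 of 8 contractile filament genes were called, against 2.88% of all genes called higher, and in Neu metastases 0 of 8, against 0.155%.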

How the data were processed

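RNA of each sample was labeled with Cy5 and the reference RNA, a single pooled preparation, with Cy3. The authors scanned the slides, scored spot quality and normalized each array, and the deposited values are the resulting log2 ratios (sample over reference). Quality scores were not analysed here, so no clone was left out for spot quality. The sources used here give no genome build. Groups were taken from the labels. Each pair was fitted alone with limma 3.58.1 (lmFit, then eBayes) under R 4.3.3. A clone was tested where both groups had values on 50% or more of their arrays and on 2 or more, and was called at a Benjamini-Hochberg adjusted p under 0.05 over all clones. Of the 15k values 8 were missing. Folds are ratios of geometric means, and intervals are 95%. The fits were tested on simulated data. Where nothing says that samples came from separate mice, p-values measure the spread between these samples only. Precision is limited by how many arrays each group has.

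All clones of Cnn1, Cnn2, Mylk and Tgfb1i1 are described. The 5 genes of highest r with each member are named, and from the lists of contractile filaments, regulators and adhesion genes the 3 of smallest adjusted p between Wnt-1 and Neu tumors and between Wnt-1 tumors and hyperplastic glands. The other list genes and marker genes named, and the single arrays picked out, were chosen after their values were seen. Members and lists were chosen with earlier results of these data known. Correlations were tested with 100000 permutations, two-sided, and run with numpy 2.4.6 and scipy 1.17.1. Alternatives were centring on the median, quantile normalization, clones with a value on every array, extreme ratios set missing, all groups in 1 fit, trend and robust eBayes, clones averaged per gene, a permutation t test at 0.001, arrays of SD over 1.3 left out, each replicate of groups of up to 5 left out, tail-vein metastases added and a replicate block. Leaving out Neu tumor 67, the block's arrays without the block, and Mylk clone 29c9 alone were chosen after seeing the data. Promoter windows came from RefSeq tables. A further group of 8.7k arrays was left out.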

Additional observations from a re-analysis of the deposited data

How the results depend on the processing

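Across 13 summary results, 107 of 140 recomputed values lay within 1.5 times the first. In hyperplastic against virgin glands 4 clones became 1 with all groups in 1 fit and 1 to 4 on leaving out a virgin gland. With clones averaged, the result of a gene is counted here for each of its clones. In Wnt-1 metastases against tumors 2 became 4 under quantile normalization, 5 with clones averaged per gene (the genes Cnn1, Cnn2 and Mylk), 1 with all groups in 1 fit and 0 without the arrays of SD over 1.3. In Neu metastases against tumors 1 became 0 under quantile normalization, all groups in 1 fit, trend and robust eBayes, clones averaged, tail-vein metastases added and tumor 67 left out, and 0 to 1 on leaving out a metastasis. In fat against virgin glands 1 became 0 under quantile normalization, without the wide arrays, with clones averaged and on leaving out any array (0 to 0), and in fat against tumors 1 became 2 with clones averaged (the gene Cnn2, counted for both clones). The cause of these changes was not tested.

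A replicate block on the shared numbers, over arrays that share a number only, gave 1 clone in Wnt-1 mice (Mylk clone 29c9, 1.04, adjusted p = 0.0161; Cnn1 0.71, adjusted p = 0.147) and 0 in Neu mice, against 0 and 0 without the block on the same arrays. Deviations of same-numbered arrays were correlated at -0.07 to 0.29 over 7 Wnt-1 numbers, 1 of which was nearest to its own. Over 3 Neu numbers they were correlated at -0.01 to 0.12, and 0 were nearest to their own. Such correlations over few numbers cannot decide whether a shared number stands for 1 mouse, which the labels do not say. Numbers 73, 74, 75 and 76 were each carried by a Neu tumor on the 15k arrays and a Wnt-1 tumor on the 8.7k arrays. Across array types a number was thus not tied to 1 transgene.

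Single values changed sign in 30 cases. Averaging both Mylk clones turned clone 34a22 to 0.40 in hyperplastic against virgin glands, 0.15 in Wnt-1 tumors against virgin glands, 1.21 in Wnt-1 against Neu tumors, 0.40 in Wnt-1 metastases against tumors and 1.06 in Wnt-1 against Neu metastases, since it takes in the other clone. Averaging also turned Cnn2 clone 4j13 in Neu tumors against virgin glands to 0.15 and in p53 null tumors to 0.000712, and clone 19a20 in fat against virgin glands to 0.0324. Quantile normalization turned Mylk clone 34a22 in Wnt-1 tumors against hyperplastic glands to 0.0131 and in fat against virgin glands to -0.0262, Cnn2 clone 4j13 in Neu tumors against virgin glands to 0.0594, Cnn2 clone 19a20 in fat to 0.427, and the difference of the metastasis step to 0.0607 and 0.108 for Cnn2, 0.45 for Mylk clone 29c9 and 0.25 for Tgfb1i1 clone 5m18, while adding tail-vein metastases turned that of Mylk clone 29c9 to 0.0846. Cnn1 in Neu metastases against tumors became -0.0691 with the block and -0.0691 without it on the shared numbers. Leaving out single arrays gave for Cnn1 a range of -0.0343 to 0.215 in hyperplastic against virgin glands, -0.26 to 0.417 in fat against virgin glands and -0.43 to 0.247 in fat against tumors, and for Tgfb1i1 clone 6d19 one of -0.0524 to 0.229 in fat against virgin glands. Without wide arrays Tgfb1i1 clone 6d19 in fat against virgin glands became -0.0524 and Cnn1 in fat against tumors 0.298. In Wnt-1 tumors the r of Cnn1 and Cnn2 became -0.00704 with centring, that of Cnn2 and Tgfb1i1 0.0464 with centring and 0.0321 without wide arrays, and that of Cnn2 and Mylk 0.0305 without wide arrays.

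The permutation t test was not run as an alternative where the arrays allow too few splits: 792 for hyperplastic against virgin glands, 56 for fat against virgin glands, 455 for Neu metastases against tumors and 286 for Wnt-1 against Neu metastases.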

Other observations

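Myh11, the myosin heavy chain of smooth muscle, was the gene nearest to Mylk over all arrays, and by group mean it too was highest in Wnt-1 metastases and lowest in the 3 Neu groups, with the groups between in another order than for Mylk clone 29c9. It ran from 0.26 through a median of 0.80 to 1.63 in Wnt-1 metastases, from -0.69 through 0.42 to 1.23 in Wnt-1 tumors and from -0.04 through 0.48 to 0.86 in hyperplastic glands, and Neu tumors ran from -1.48 through -1.03 to -0.47. The oxytocin receptor Oxtr, which triggers contraction of myoepithelial cells, was highest by median in hyperplastic glands (1.48, from -0.10 to 2.23) and fat (1.23, from 1.06 to 1.33) and stood at 0.67 (from -0.16 to 1.83) in Wnt-1 tumors and -0.60 (from -1.46 to 1.52) in Neu tumors, so Wnt-1 and Neu tumors overlapped for it, as they did for Mylk clone 34a22 but not for the other 6 clones of the members.

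The 2 lung metastases from tail-vein injection of Neu tumor cells entered no main comparison. They stood at -2.82 and -2.76 for Cnn1 and at -2.30 and -1.40 for Mylk clone 29c9, and their lung epithelium lists stood at -0.76 and -0.94. For Cnn2 clone 19a20 they stood at -0.46 and 0.91, the latter above all 12 Neu tumors.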
